A study of Rattus norvegicus with 3 samples.

Results

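A set of 10 imprinted genes that bear on growth was followed through the cell classes of the rat cortex before birth: Igf2, Dlk1, Meg3, Mest, Peg3, Peg10, Plagl1, Ndn, Grb10 and Nnat. They are the rows with those symbols among the 29772 genes of the deposited matrices, and all 10 were found. The cells were freshly prepared primary cortical cells of wild-type rat embryos, dissociated with papain and profiled by droplet-based sequencing of polyadenylated RNA. There were 3 libraries, labelled embryonic day 14, 16 and 18 (E14, E16 and E18), with no treatment and 1 library per label. The strain and the number of embryos behind a library are not given in the sources used here. The title of the series names the timing of cortical neurogenesis across species as its subject.

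An imprinted gene is expressed mainly from 1 parental copy, and many such genes act on fetal growth. Igf2 (insulin-like growth factor 2) and Dlk1 (a transmembrane and secreted Notch-family ligand) are paternally expressed growth regulators, and Grb10 is an adaptor that damps insulin and IGF receptor signalling. Plagl1 (Zac1) and Peg3 encode zinc finger proteins, Ndn (necdin) a neuronal MAGE protein, Nnat (neuronatin) a small endoplasmic reticulum membrane protein, Mest a hydrolase-like membrane protein and Peg10 a retrotransposon-derived protein, while Meg3 is a long noncoding RNA expressed from the maternal copy. These counts do not separate the parental copies, so nothing here measures imprinting itself.

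The sequences before the annotated starts of 3 members are shown: Plagl1 and Grb10, because they had the largest ratios between the libraries labelled E16 and E14 in radial glia, and Peg3, because its window held a sequence known to be bound by the Plagl1 protein. They are RefSeq promoter windows of 250 bases on GRCr8, a later build than the mRatBN7.2 named in the submitters' processing notes, and 9 of the 10 members had such a window. In the first pair, capitals mark CpG, the dinucleotide that carries DNA methylation at imprinted promoters. The Plagl1 window (chr1:9297214-9297463, plus strand) held 23 CpG, more than 87.7% of 33469 rat promoter windows of this length, and the Grb10 window (chr14:90816388-90816637, minus strand) held 38, more than 98.3%, against a median of 5 over all windows.
Plagl1: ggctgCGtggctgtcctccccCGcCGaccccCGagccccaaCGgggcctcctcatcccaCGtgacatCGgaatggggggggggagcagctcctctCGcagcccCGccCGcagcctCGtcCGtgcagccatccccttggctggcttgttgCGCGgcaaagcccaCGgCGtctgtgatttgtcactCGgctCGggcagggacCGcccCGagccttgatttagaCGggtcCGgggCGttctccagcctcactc
Grb10: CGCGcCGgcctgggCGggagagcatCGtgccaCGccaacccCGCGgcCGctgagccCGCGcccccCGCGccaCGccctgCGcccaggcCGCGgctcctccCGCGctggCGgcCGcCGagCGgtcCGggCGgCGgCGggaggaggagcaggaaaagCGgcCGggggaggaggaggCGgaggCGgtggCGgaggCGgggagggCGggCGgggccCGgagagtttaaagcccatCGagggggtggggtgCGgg
In the Peg3 window (chr1:76130744-76130993, plus strand) capitals mark that sequence, GGGGCCCC. It reads the same on both strands, and 0.753% of the windows hold it. Among the members' windows it was found in that of Peg3, once, beginning 213 bases before the start.
Peg3: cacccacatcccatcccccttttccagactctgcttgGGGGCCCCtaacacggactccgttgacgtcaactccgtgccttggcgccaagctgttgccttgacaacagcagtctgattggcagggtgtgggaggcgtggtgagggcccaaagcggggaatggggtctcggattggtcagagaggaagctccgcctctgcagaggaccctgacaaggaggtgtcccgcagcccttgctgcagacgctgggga
These matches describe letters in a window, and no binding or methylation was measured.

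The libraries held 62740631, 80974234 and 73727823 molecule counts (UMIs, unique molecular identifiers) in label order, and 4286, 4977 and 5431 cells were kept. From 12 to 17 cell barcodes were shared by each pair of libraries. Stage genes did not follow the order of the labels: Hmga2, a gene of early radial glia, stood at 11.6, 235 and 22.1 counts per 1000000 UMIs (CPM) of the radial glia in each library in turn, and Aldoc, a gene of late radial glia, at 730, 14.6 and 236 CPM. The library labelled E16 thus had the earliest pattern of these genes and that labelled E14 the latest. Every direction below is between libraries as labelled, and library, age and preparation cannot be told apart. Levels are CPM of the summed UMIs of a class with exact Poisson 95% intervals, which cover counting error only, and with 1 library per label no test between libraries was made. A difference of at least 2-fold means a log2 ratio of at least 1 with 1 CPM added to each level, among genes with at least 5 CPM on average of the 2 sums. A gene under 5 CPM in one sum passes this minimum only if it is higher in the other, so a count or median that includes such members supports nothing by itself, and they are named beside it.

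Cells were clustered without the imprinted genes and named from fixed markers. Radial glia (the neural stem cells) numbered 404, 2206 and 1729 in label order, and intermediate progenitors 441, 404 and 917. Newborn excitatory neurons numbered 1130, 12 and 1882, maturing ones 2203, 1 and 523, and GABAergic cells 55, 74 and 72. In the library labelled E16 most neurons lay in a cluster that the markers could not name, cluster 13 with 595 of its cells, led by Calb1, Calb2, Lhx9 and Ebf1. Clusters 10, 17 and 29 also stayed unnamed, and their leading genes were Wnt8b with replication genes, Fgf17 with Fgf8, and Sulf1 with Ttr. Meningeal fibroblasts numbered 0, 93 and 21, mural cells 7, 14 and 15, and endothelial cells 7, 16 and 3. Erythroid cells numbered 1, 124 and 9. Because the same transcriptomes defined the classes, contrasts between classes are descriptions.

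Igf2 and Dlk1, the ligands of the group, were, over the 3 libraries together, the members with the largest shares of UMIs in non-neural classes. Of 1578 Igf2 UMIs in kept cells, 83.6% lay in meningeal, mural, endothelial, choroid plexus, erythroid and microglial cells, which made up 2.74% of the cells. Meningeal fibroblasts held 43.3% of all Igf2 UMIs, erythroid cells 22.2%, and mural with endothelial cells 10.1%. Named neural classes, with 84.1% of the cells, held 5.96%. Without the library labelled E16 the erythroid share was 0.357% and the neural share 10.9%, while the meningeal share stayed at 43.1%. Dlk1 had 52.4% of its UMIs in mural and endothelial cells over the 3 libraries, but this share was 98.5% in the library labelled E14, 16.5% in that labelled E16 and 90.8% in that labelled E18. Without the library labelled E16 it was 94.3%. In the library labelled E16 the unnamed clusters held 53.8% of the Dlk1 UMIs. For Plagl1, Ndn and Nnat the named neural classes held from 80.6% to 82.1%, near their share of cells.

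**Figure D1:**
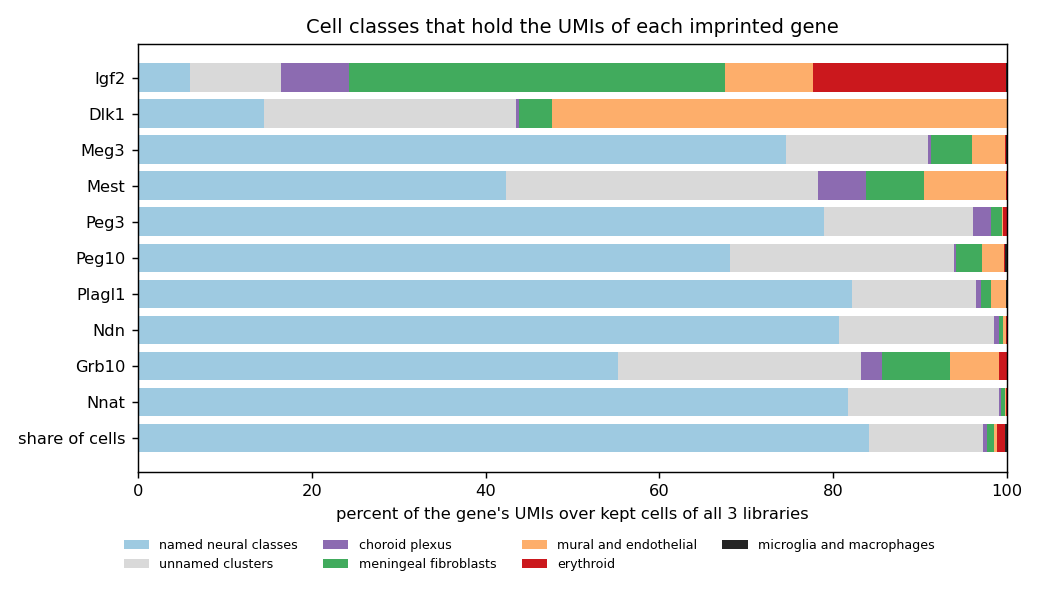
Horizontal bars give the percent of each gene's UMIs found in each group of classes over the kept cells of all 3 libraries, and the lowest bar gives the same split of the cells. Igf2 has 43.3% in meningeal fibroblasts and Dlk1 52.4% in mural and endothelial cells (94.3% without the library labelled E16), while Nnat follows the cells.

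In meningeal fibroblasts Igf2 stood at 348 CPM (95% interval 317 to 383) in the library labelled E16 and 711 CPM (624 to 806) in that labelled E18, and 83.9% and 90.5% of these cells had an Igf2 UMI. In mural cells, the contractile cells around vessels, it stood at 44.1, 373 and 211 CPM in label order, from 7, 14 and 15 cells. Choroid plexus cells, which make cerebrospinal fluid, had 10.9 CPM in the library labelled E16 and 100.3 CPM in that labelled E18. Beside radial glia of the same library, meningeal fibroblasts labelled E16 had 6 of 10 members at least 2-fold higher, where 17.1% of genes were, and Plagl1 stood lower, at 56.1 against 123 CPM. Igf2, Dlk1 and Meg3 entered that count only through the fibroblasts. The Igf2 levels above all exceeded those of radial glia, at 0.169, 0.786 and 0.537 CPM, each from at most 28 UMIs.

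Erythroid cells were a further Igf2 source, with 349 UMIs in 106 of 124 cells of the library labelled E16, a level of 85.2 CPM (76.5 to 94.6). No single cell carried it, since the highest held 14 UMIs. The globin genes Hbe1, Hbz and Hbg1 stood there at 352677, 205237 and 33851 CPM. Beside radial glia of that library, 93.0% of the genes compared stood at least 2-fold lower in erythroid cells, as did 6 of 7 members. Igf2 was among the 2.71% at least 2-fold higher, but it passed the minimum only through the erythroid cells. Peg10, Plagl1 and Ndn passed it only through radial glia. The part of the globin UMIs in these shares was not tested. In the library labelled E18 the 9 erythroid cells had 2 Igf2 UMIs, both in 1 cell.

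Within neural classes Igf2 was near the limit of detection. No UMI was seen in the 55, 74 and 72 GABAergic cells of the libraries in label order, and 1.18% of radial glia in the library labelled E16 had one. After thinning each cell to 2000 UMIs the share was 0.182%. For every 100 UMIs of the 10 meningeal markers, radial glia held 5.56, 8.09 and 8.28 Igf2 UMIs in label order, against 3.29 in meningeal cells themselves. The meningeal marker UMIs behind this were 18, 346 and 157, with 8, 0 and 1 of the 10 markers at 0. For every 100 UMIs of the mural markers radial glia held 0.541, 2.73 and 1.74 Igf2 UMIs, against 7.78 in mural cells, from 185, 1025 and 749 marker UMIs with 6, 1 and 1 of 10 markers at 0. The mural markers summed to 31.2, 28.8 and 31.0 CPM in radial glia but 2.92, 5.10 and 4.14 CPM in intermediate progenitors. There the Igf2 ratio was 0, 16.7 and 26.7, from 0, 4 and 12 Igf2 UMIs. Its direction against mural cells thus differed between neural classes. The part of free RNA in these few counts was not tested. Of the unnamed clusters, cluster 17 held the most Igf2, at 18.4 CPM in the library labelled E16 and 120 CPM in that labelled E18, from 18 of 357 and 11 of 42 cells.

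Dlk1 was highest in mural cells of all 3 libraries. It stood at 820 CPM (93 UMIs in 7 of 7 cells) in the library labelled E14, 300 CPM (57 UMIs in 12 of 14 cells) in that labelled E16 and 625 CPM (148 UMIs in 11 of 15 cells) in that labelled E18. Without the highest cell of each library the levels were 745, 265 and 543 CPM. Endothelial cells of the library labelled E14 had 39 Dlk1 UMIs, 21 of them in 1 cell, and those of the library labelled E16 had 0.

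Among neural cells Dlk1 appeared mainly in the library labelled E16. GABAergic cells there stood at 61.1 CPM (42.8 to 84.6), with UMIs in 15 of 74 cells, and no Dlk1 UMI was seen in the GABAergic cells of the other libraries. Against the level that 3 UMIs would give, this is at least 6.78-fold higher than in the library labelled E14. Cluster 17 at 22.2 CPM and cluster 13 at 13.8 CPM followed in that library. Radial glia held 24 Dlk1 UMIs in 2206 cells there and 0 in the other libraries.

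**Figure D2:**
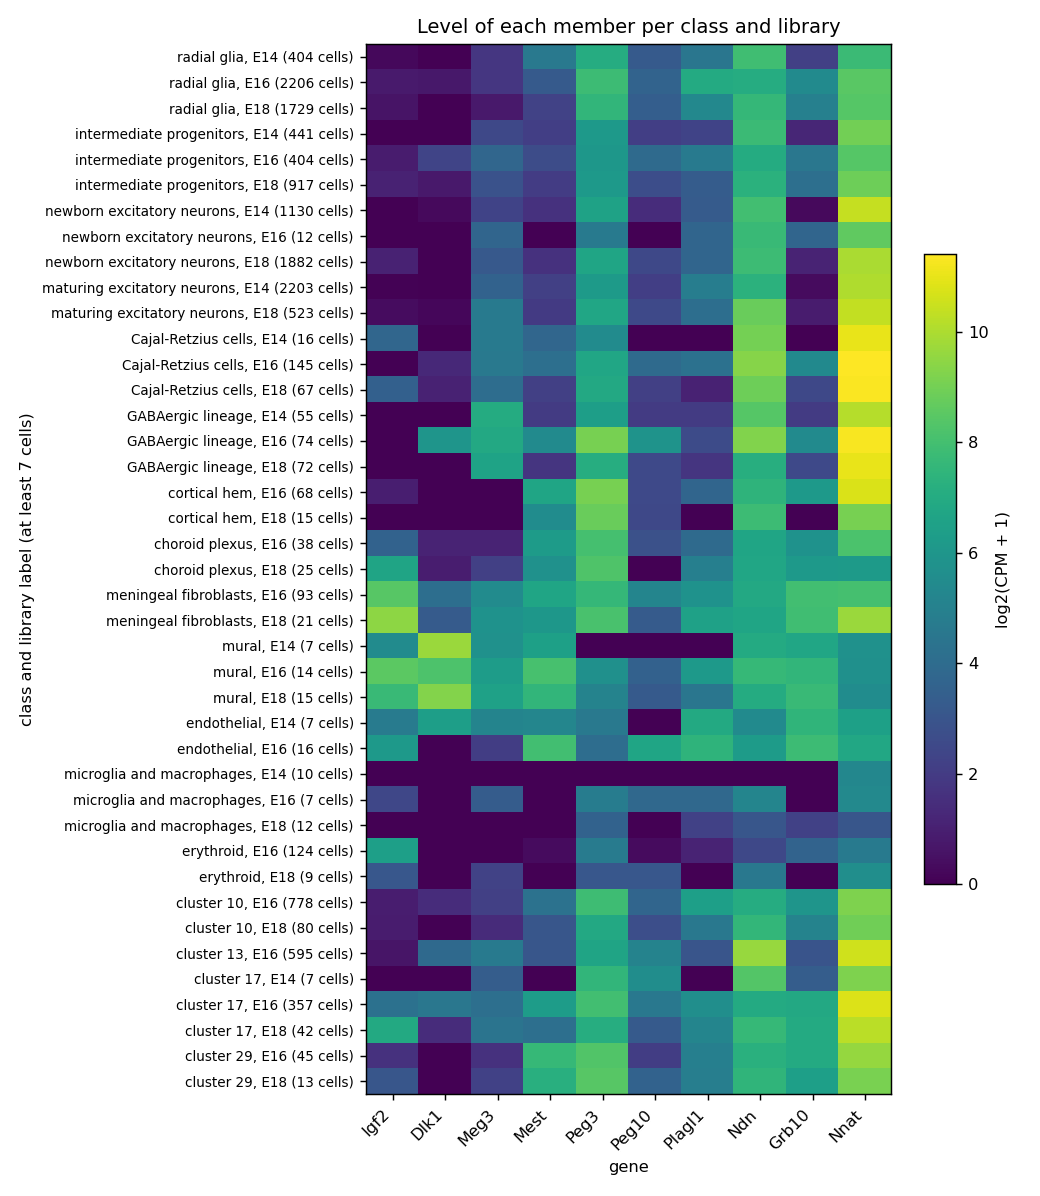
Each row is a class or unnamed cluster of at least 7 cells in 1 library and each column a gene, with colour giving log2(CPM + 1). Igf2 and Dlk1 are bright in meningeal or mural rows, Ndn and Nnat in neuronal rows, and microglial rows are dark for nearly all genes.

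Grb10, the receptor adaptor, joined vascular and meningeal cells with neural progenitors. Meningeal fibroblasts had 248 and 244 CPM in the libraries labelled E16 and E18, and the intervals overlapped. Mural cells had 106, 184 and 211 CPM in label order, and endothelial cells 173 CPM and 227 CPM in the libraries labelled E14 and E16. Radial glia had 3.54, 43.5 and 30.3 CPM of Grb10 across the labels, and maturing neurons had only 8 UMIs in 2203 cells of the library labelled E14 and 6 in 523 of that labelled E18.

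Mest was likewise high outside the excitatory lineage. Mural cells had 88.1, 268 and 181 CPM in label order, hem cells (the signalling edge of the cortex) of the library labelled E16 had 103 CPM, and cluster 29 had 200 CPM in the library labelled E16 and 148 CPM in that labelled E18. Newborn and maturing excitatory neurons stayed between 2.09 and 3.45 CPM in the libraries labelled E14 and E18. For every 100 mural-marker UMIs, radial glia held 74.6, 29.1 and 12.1 Mest UMIs in label order, and mural cells 6.42. Intermediate progenitors, with lower mural-marker sums, held 113, 104 and 73.3. The part of free RNA in the neural counts was not tested.

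Meg3 was the member with its highest levels in GABAergic cells. It stood there at 129, 119 and 97.2 CPM in label order, with overlapping intervals of 93.5 to 174, 92.7 to 150 and 69.7 to 132. Radial glia had 2.53, 2.50 and 0.744 CPM. Mural cells (52.9, 78.8 and 92.9 CPM) and meningeal fibroblasts (44.3 and 55.8 CPM) came next. Hem cells had no Meg3 UMI in 68 and 15 cells.

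Ndn and Nnat were seen in nearly all neural classes, with their highest levels in some of the neuronal ones. Ndn was at 518, 645 and 471 CPM in Cajal-Retzius cells, the early Reelin-producing neurons, in label order, and at 799 CPM in cluster 13 of the library labelled E16. In the library labelled E14 it did not separate radial glia (243 CPM) from newborn neurons (247 CPM), and maturing neurons were lower (162 CPM). Radial glia held 28.6% of all Ndn UMIs, with 29.5% of the cells. Nnat stood at 2073, 2728 and 2632 CPM in Cajal-Retzius cells and at 219, 357 and 338 CPM in radial glia. It was also high outside neurons, at 1760 CPM in hem cells and 1779 CPM in cluster 17 of the library labelled E16, beside newborn neurons of the other libraries at 1342 and 1013 CPM. The 15 hem cells labelled E18 had 540 CPM of Nnat, with 66 of 117 UMIs in 1 cell and 305 CPM without it. Meningeal fibroblasts of the library labelled E18 had 819 CPM of Nnat against 261 CPM in those labelled E16, from 21 and 93 cells. Peg3 was at 539 CPM in hem cells and 531 CPM in GABAergic cells of the library labelled E16, and at 135, 225 and 182 CPM in radial glia. Plagl1 was in radial glia at 21.4, 123 and 39.4 CPM, and endothelial cells had 122 CPM and 170 CPM in the libraries labelled E14 and E16. Peg10 reached 57.7 CPM in GABAergic cells of the library labelled E16, its highest level among the neural classes, and stood at 104 CPM in 16 endothelial cells of the library labelled E16. The 7 endothelial cells labelled E14 had 0 Peg10 UMIs, and in those labelled E18 1 of 3 cells held all 5.

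Microglia and macrophages, 29 cells over the libraries with a median depth of 20683 UMIs, served as a class with little of these genes. They held 0 UMIs of Dlk1 and Mest, 1 each of Igf2 and Grb10, 2 of Meg3, 3 of Peg10, 4 of Plagl1, 9 of Peg3, 10 of Ndn and 18 of Nnat.

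The first comparison across labels was made within radial glia, where 7 members had at least 5 CPM on average. Between the libraries labelled E16 and E14, 5 of the 7 were higher and 2 lower, with a median log2 ratio of 0.70 beside -0.10 over all 9873 genes compared. Plagl1 and Grb10 were at least 2-fold higher, as were 2.36% of all genes, and Mest was at least 2-fold lower, as were 7.46%. Grb10, at 3.54 CPM in E14, passed the minimum only through E16. Igf2, Dlk1 and Meg3 were too low in radial glia to be compared.

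Plagl1, a regulator of progenitor growth, was 5.76-fold higher in radial glia of the library labelled E16 than in those labelled E14 (95% counting interval 4.83 to 6.93). Plagl1 UMIs were seen in 20.5%, 70.3% and 33.3% of radial glia in label order, and in 4.26%, 19.9% and 7.34% after thinning. Grb10 was 12.3-fold higher (8.01 to 19.9), with UMIs in 3.96%, 34.0% and 23.8% of radial glia. Peg3 was 1.67-fold higher and Nnat 1.63-fold higher, and the interval for Peg10, 0.99 to 1.82, included no difference.

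Mest and Ndn were lower in E16. With 10 CPM added the log2 ratio of Mest was -0.86, short of 2-fold. Mest stood in radial glia at 23.3 CPM in E14, 8.36 CPM in E16 and 3.76 CPM in E18, so the library labelled E14 was 2.78-fold above that labelled E16 (2.26 to 3.42) and 6.19-fold above that labelled E18 (4.71 to 8.15). Ndn stood at 243, 134 and 195 CPM, 1.81-fold higher in the library labelled E14 than in that labelled E16.

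The library labelled E18 lay between the others for most members. Peg3, Peg10, Plagl1, Grb10 and Nnat had the order E14, E18, E16 from low to high in radial glia, an order shared by 19.5% of all genes and also by Hmga2. Ndn had the reverse of it, as did 36.6% of genes. Against the library labelled E14 that labelled E18 had a median log2 ratio of 0.44 over the members, beside -0.06 over all genes, and 0.22 with a stricter cell filter. Grb10 was at least 2-fold higher, at 8.57-fold (5.56 to 13.9), where 0.93% of genes were, and Mest was at least 2-fold lower, where 3.32% were. Both passed the minimum only through the library in which they were higher, and so did Mest between E18 and E16. Against the library labelled E16 the median was -0.30, beside 0.06 over all genes. Plagl1 was at least 2-fold lower there, as were 0.652% of genes, with 3.13-fold more in the library labelled E16. No member was at least 2-fold higher, where 2.0% of genes were.

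Radial glia were made of different clusters in the different libraries, so the ratios were also taken inside the 3 radial glial clusters that had at least 50 cells in every library. Between the libraries labelled E16 and E14, the log2 ratios of Plagl1 in clusters 4, 6 and 8 were 2.32, 1.94 and 2.95, and those of Grb10 were 3.65, 1.44 and 1.5. Peg3 had 1.16, 1.21 and 1.27, larger than over the whole class. Mest had -1.78, 0.62 and -1.79, so its direction did not hold in cluster 6, which had 53 cells labelled E16. Nnat had 0.76, 1.67 and -0.01, so its higher level in E16 did not hold in cluster 8, at 211 against 213 CPM. Peg10 had 0.33, 2.27 and 0.77, and Ndn had -0.86, -0.33 and -0.35, the direction of the whole class each time. Between E18 and E16 the order over the whole class did not hold in each cluster. Grb10 had log2 ratios of -0.96, 1.46 and 0.99 in clusters 4, 6 and 8, so E18 was the higher library in the latter pair, at 30.1 against 10.3 CPM and 30.2 against 14.7 CPM. Nnat had 0.09, -1.10 and 0.60, while Plagl1 (-1.73, -0.97 and -2.00) and Peg3 (-0.39, -0.98 and -0.58) were lower in E18 in all 3. Among markers of other cell types in radial glia, the summed mural markers stood at 31.2, 28.8 and 31.0 CPM and the summed meningeal markers at 3.04, 9.71 and 6.49 CPM, with 6, 1 and 1 of 10 mural and 8, 0 and 1 of 10 meningeal markers at 0. The choroid plexus markers stood at 2.87, 14.1 and 40.4 CPM. In intermediate progenitors the mural sum was lower, at 2.92, 5.10 and 4.14 CPM. What radial glia themselves contribute to their mural sum was not tested. Hbz, an embryonic globin, was at 0.169, 90.3 and 4.79 CPM in radial glia, and its part in the members' differences was not tested.

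**Figure D3:**
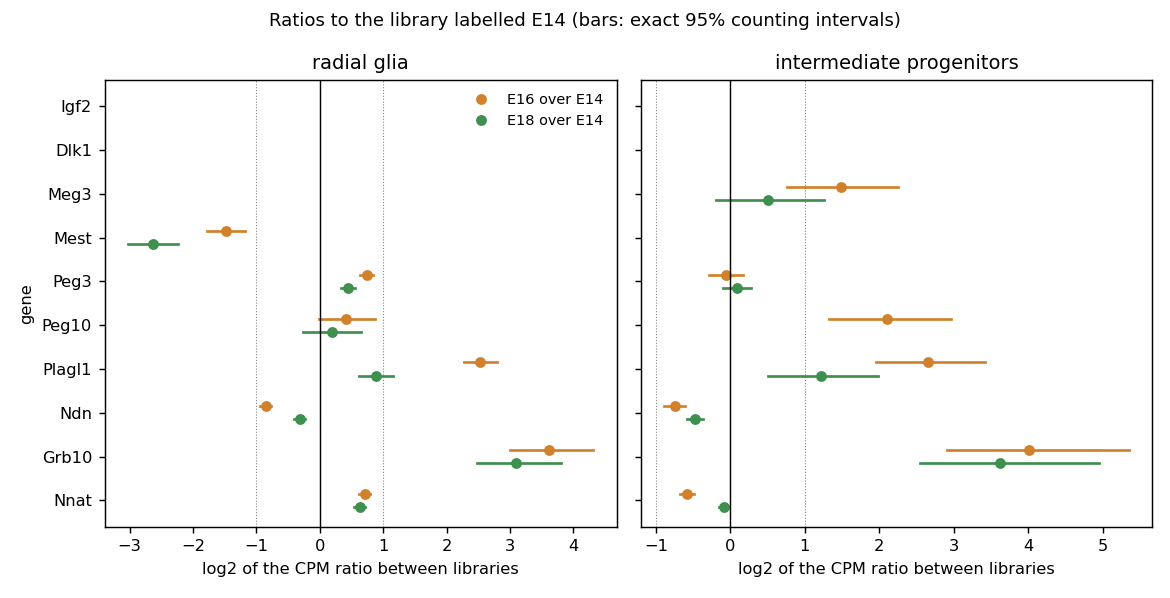
Points give the log2 CPM ratio of each member to the library labelled E14 in radial glia (left) and intermediate progenitors (right), bars the exact 95% counting interval, and dotted lines 2-fold. Members with under 5 CPM on average have no point. Grb10 and Plagl1 lie furthest right in both panels, and Mest, with a point in the radial glia panel alone, lies furthest left there.

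Intermediate progenitors, the dividing daughters of radial glia, gave similar values for the largest ratios. Grb10 stood at 1.36, 21.9 and 16.7 CPM in label order and Plagl1 at 3.89, 24.4 and 9.01 CPM. Between the libraries labelled E16 and E14, 4 of 7 members (Meg3, Peg10, Plagl1 and Grb10) were at least 2-fold higher, where 3.26% of genes were, and 0 were at least 2-fold lower, where 7.79% were. All 4 were under 5 CPM in E14, Meg3 at 4.48 and Peg10 at 3.31 CPM, and passed the minimum only through E16. With 10 CPM added, Meg3 (0.64) and Peg10 (0.86) were short of 2-fold on the log2 scale. These progenitors too lay in different clusters by library: clusters 11, 12 and 16 held 262, 92 and 87 cells labelled E14 and 63, 200 and 141 labelled E16. Inside them Grb10 and Plagl1 were higher in E16 each time, and Meg3 had log2 ratios of -0.94, 1.44 and 1.41. Peg3 had 0.56, -0.07 and -0.71 inside them, and over the whole class it stood at 65.4 CPM in E16 and 68.1 CPM in E14 with overlapping intervals. Nnat was lower over the whole class in E16, at 334 against 500.4 CPM, opposite to radial glia. Between E18 and E14, Plagl1 and Grb10 of 6 members were at least 2-fold higher, beside 1.05% of genes, and 0 at least 2-fold lower, beside 2.66%. Both, and Meg3, passed only through E18. Plagl1 lay at the limit with a log2 ratio of 1.03, which was 0.45 with 10 CPM added, 0.92 at Leiden resolution 2, and 0.17 inside cluster 16. Between E18 and E16, Peg10 and Plagl1 of 7 were at least 2-fold lower, beside 1.3% of genes, and 0 at least 2-fold higher, beside 1.93%. With 10 CPM added these were -0.65 and -0.86 on the log2 scale.

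Excitatory neurons could be compared between the libraries labelled E14 and E18. In newborn neurons 0 of 5 members were at least 2-fold higher, where 1.49% of genes were, and 0 were at least 2-fold lower, where 1.96% were. Meg3 passed the minimum only through E18. These neurons lay in different clusters by library, with 1117 and 20 cells labelled E14 and E18 in cluster 2, 12 and 962 in cluster 5, and 1 and 900 in cluster 7. In maturing neurons Ndn stood at 162 CPM and 449 CPM, a 2.77-fold difference (2.65 to 2.90), and Meg3 at 11.1 and 25.1 CPM, a 2.27-fold difference (1.88 to 2.72). These 2 of 5 were at least 2-fold higher in the library labelled E18, where 2.63% of genes were, and 0 were at least 2-fold lower, where 1.74% were. Plagl1 was lower there, at 16.5 against 27.3 CPM. Almost all maturing neurons of the 2 libraries lay in different clusters, clusters 1 and 9 for E14 and cluster 14 for E18. Inside cluster 14, with 68 and 508 cells, Ndn stood at 141 CPM (122 to 163) in E14 and 454 CPM (438 to 470) in E18. The difference in Meg3 did not hold there, at 22.8 CPM (15.5 to 32.4) and 24.3 CPM (20.8 to 28.3), and Plagl1 was not lower in E18 there, with overlapping intervals of 8.41 to 21.8 CPM in E14 and 13.8 to 20.0 CPM in E18.

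Along the excitatory lineage some members were lower at later steps and others higher. In all 3 libraries Plagl1 and Peg3 were lower in intermediate progenitors than in radial glia, with log2 ratios of -2.20, -2.29 and -2.01 for Plagl1 and -0.97, -1.77 and -1.32 for Peg3. In E14 Plagl1 passed the minimum only through radial glia. Newborn neurons over radial glia could be compared in the libraries labelled E14 and E18. The median log2 ratio over 6 members each was -0.86 and -0.87, beside -0.13 and -0.08 over all genes. At least 2-fold lower were Mest, Peg10 and Plagl1 in E14, where 18.0% of genes were, and Plagl1 and Grb10 in E18, where 16.7% were. Of the 6 compared, Nnat was the 1 member at least 2-fold higher in each, beside 11.8% and 12.1% of genes. Meg3 was under the minimum and was not compared. It had 15 UMIs in 404 radial glia and 34 in 1130 newborn neurons in E14. In E18 these were 18 in 1729 and 135 in 1882. Mest and Peg10 in E14, and Peg10 and Grb10 in E18, passed the minimum only through radial glia. Averaged over both libraries, the median of 7 members was -1.35, and -0.28 with a minimum of 20 CPM. Grb10 had the steepest course in the library labelled E18, from 30.3 CPM in radial glia through 16.7 in intermediate progenitors to 1.2 in newborn and 0.847 in maturing neurons. Nnat was higher in neurons, going from 219 to 1342 CPM between radial glia and newborn neurons of the library labelled E14 and from 338 to 1013 CPM in that labelled E18. Meg3 was highest in maturing neurons in both. Plagl1 stood at 8.74 CPM in newborn and 27.3 CPM in maturing neurons of the library labelled E14, where maturing neurons also exceeded radial glia. It was higher in maturing than in newborn neurons of the library labelled E18 too.

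**Figure D4:**
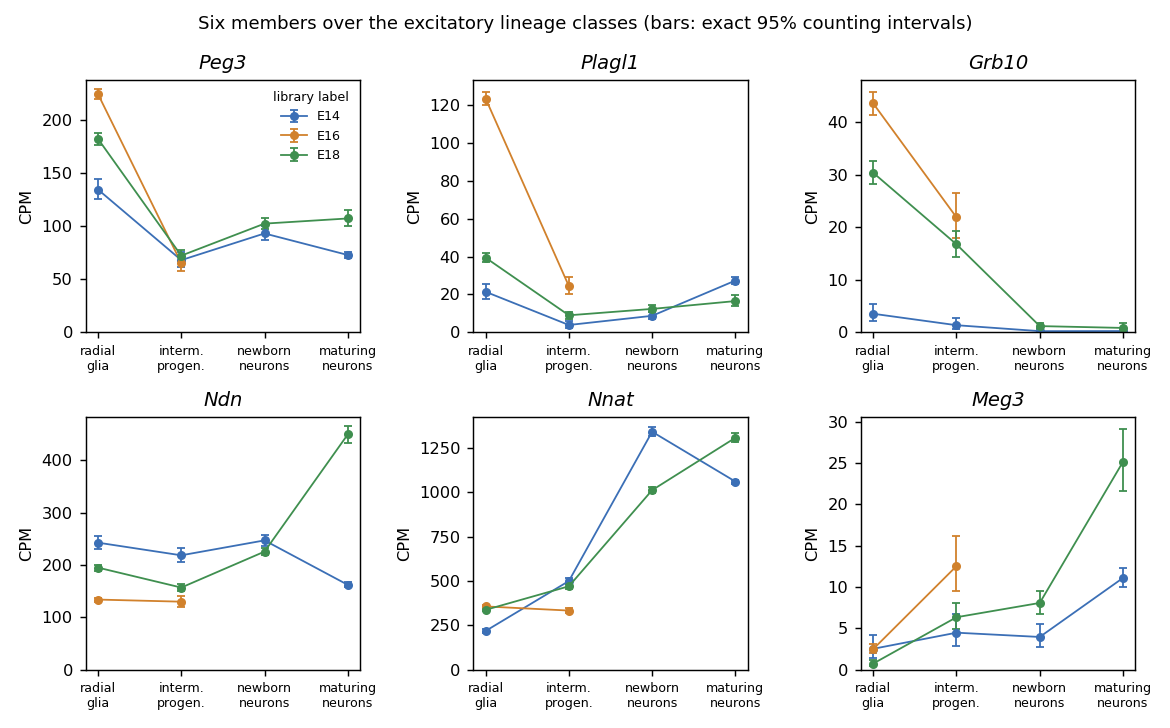
CPM of 6 members over 4 excitatory lineage classes, with 1 line per library label and exact 95% counting intervals; sums of under 30 cells are left out, so the library labelled E16 stops at intermediate progenitors. Peg3, Plagl1 and Grb10 are highest in radial glia in the libraries labelled E16 and E18, and Nnat and Meg3 are higher in maturing neurons than in radial glia in those labelled E14 and E18.

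GABAergic cells were compared between all 3 libraries. Between those labelled E16 and E14, 6 of 8 members were at least 2-fold higher, where 12.2% of genes were, and 0 were at least 2-fold lower, where 16.2% were. Of these, Dlk1, Mest, Peg10 and Grb10 had at most 1 UMI in E14 and passed the minimum only through E16, which leaves Peg3 and Nnat. Peg3 stood at 84.1, 531 and 138 CPM in label order, with the library labelled E16 6.32-fold above that labelled E14 (4.29 to 9.66). Mest, Peg10 and Grb10 had 25, 34 and 25 UMIs in the library labelled E16 against 1 each in that labelled E14, so their intervals reached from 2.31-fold, 3.22-fold and 2.31-fold upward. Between E18 and E16, which shares the library labelled E16, Dlk1, Mest, Peg3, Peg10, Ndn and Grb10 of 8 members were at least 2-fold lower, where 11.4% of genes were, and 0 were higher, where 13.1% were. Dlk1, Mest, Peg10 and Grb10 again passed only through E16. Ndn stood at 333, 604 and 142 CPM and was the 1 of 4 members at least 2-fold lower in E18 than in E14, where 10.1% were, and 0 were higher, where 10.6% were. Meg3 alone of the 8 kept overlapping intervals across the 3 libraries.

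The GABAergic cells were not alike in other genes. Isl1 and Six3, transcription factors of the ventral forebrain, stood at 173 and 110 CPM in those labelled E16, with no UMI in the other libraries. Lhx6, a factor of migrating cortical interneurons, stood at 57.1, 3.40 and 102 CPM. These 3 genes were named after their values were seen, and what the make-up of the cells contributes to the members' differences was not tested.

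Cajal-Retzius cells were compared between the libraries labelled E18 and E16, with 67 and 145 cells. Mest, Peg10, Plagl1 and Grb10, 4 of 9 members, were at least 2-fold lower in E18, where 4.09% of genes were. In E16 and E18 in turn, Mest had 22 and 3 UMIs, Peg10 19 and 3, Plagl1 24 and 1, and Grb10 55 and 4, so all passed the minimum only through E16. Igf2 was the 1 member at least 2-fold higher, where 6.35% of genes were, but its 9 UMIs came from 3 cells and it had 0 in E16, so it passed only through E18.

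Clusters 10 and 17 could also be compared between E18 and E16. In cluster 10 Mest, Peg3 and Plagl1 of 7 members were at least 2-fold lower in E18, where 2.47% of genes were, and 0 were higher, where 4.61% were. Of these, Peg3 lay at the limit of 2-fold. Plagl1 stood there at 86.2 and 22.5 CPM in E16 and E18, from 778 and 80 cells. In cluster 17 Dlk1, Mest and Peg10 of 10 members were at least 2-fold lower, where 5.04% were, and Igf2 was 6.54-fold higher (4.67 to 9.14), where 8.5% of genes were at least 2-fold higher. Dlk1 passed the minimum only through E16. Mest stood there at 78.8 CPM in E16 and 16.9 CPM in E18. Against radial glia labelled E16, cluster 17 of that library had 6 of 10 members at least 2-fold higher, where 4.89% of genes were, and Plagl1 at least 2-fold lower, where 2.17% were. Igf2, Dlk1 and Meg3 entered that count only through cluster 17.

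Some members were most alike to their own chromosomal neighbours. Likeness was measured as Pearson's r of log2(CPM + 1) over 25 class and library sums of at least 30 cells, among 10299 genes, and the sums share libraries, so r is a description. Mural, endothelial and microglial cells were too few to be among these sums. For Igf2 the first gene was H19 (r = 0.89), the noncoding RNA next to it. Ordered by start position on GRCr8, the microRNA gene Mir675 was the 1 annotated gene between them. This count includes genes that lie inside another. Sphk1 and Emp3 (both 0.85) came next. H19 stood at 419 CPM in erythroid cells of the library labelled E16, at 84.5 and 220 CPM in meningeal fibroblasts labelled E16 and E18, and at no more than 1.26 CPM in radial glia. Unlike Igf2, it had only 1, 1 and 0 UMIs in mural cells. In erythroid cells H19 had 1718 UMIs.

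For Meg3 the first gene was LOC102555254 (r = 0.94), an uncharacterised noncoding RNA on the same chromosome. By start position 16 annotated genes come between the loci, of which 1 is not a microRNA gene. It stood at 225, 572 and 173 CPM in GABAergic cells in label order and had no UMI in hem cells of the library labelled E16. Ikzf4 (0.85) and LOC120103623 (0.84) came next. Dlk1, which has 1 annotated gene between it and Meg3, was not among the 3 most alike. Dlk1 and Peg10 were each other's first gene (r = 0.85), although on different chromosomes. This leaves out the mural cells, where Dlk1 was highest, at 551 CPM over the 3 libraries, and Peg10 stood at 7.40 CPM. Isl1 (0.76) and Gfra1 (0.72) came next for Dlk1, and Chchd1 and LOC100362069 (both 0.79) for Peg10.

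**Figure D5:**
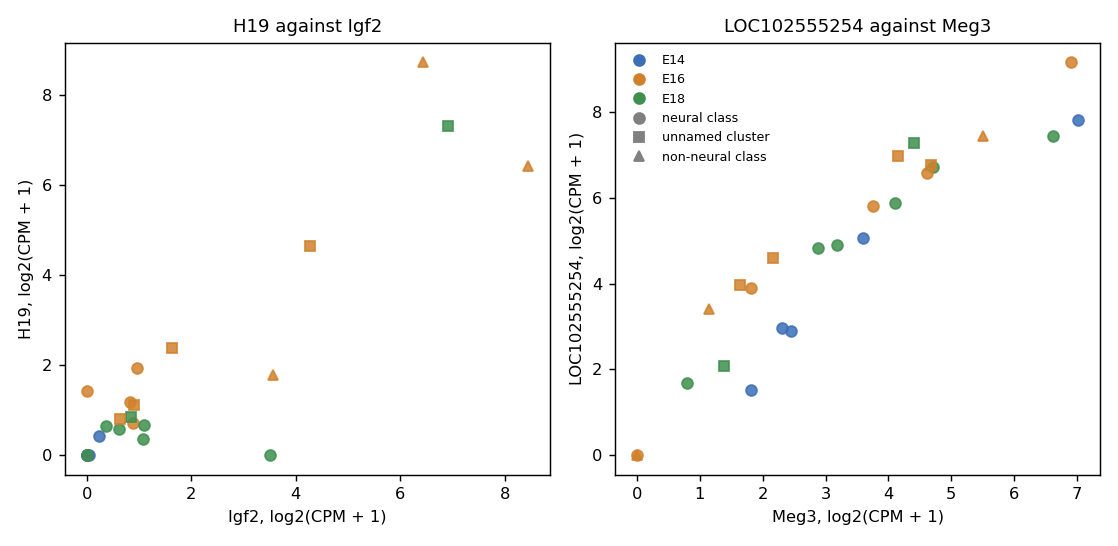
Each point is a class or unnamed cluster of at least 30 cells in 1 library, with log2(CPM + 1) of Igf2 against H19 (left) and of Meg3 against LOC102555254 (right). Most H19 points lie near 0 with Igf2, and erythroid, meningeal and cluster 17 points stand apart, while the Meg3 pair spreads along a line.

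For the other members the first genes were Ifitm2 for Mest (r = 0.88), Dnmt3a for Peg3 (0.83), C1h10orf143 for Plagl1 (0.83), Bax for Ndn (0.92), Ppfibp1 for Grb10 (0.89) and Alg2 for Nnat (0.90). Next came Dusp3 and Tmem35b for Mest, Penk and Txn1 for Plagl1, Pafah1b2 and Mapk8ip3 for Ndn, Acer3 and Rflnb for Grb10, and Sfxn3 and Tmcc1 for Nnat. The neighbours Sgce (next to Peg10), Magel2 (next to Ndn) and Blcap (next to Nnat) were not among the 3 genes most like their member. Nnat and Blcap overlap in mammals, Apeg3 is annotated antisense to Peg3, and the strand used in counting is not given in the sources used here, so a share of reads between such partners is uncertain.

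A list of 51 further imprinted genes placed the members among their kind. Of these 45 were in the files and 25 reached 20 CPM in a class of at least 30 cells. Their highest class was non-neural for 13, neural for 10 and an unnamed cluster for 2, and 7 of the 13 were highest in choroid plexus. The non-neural sums of at least 30 cells were meningeal fibroblasts, choroid plexus and erythroid cells, all of the library labelled E16. Over all 10299 genes that reached 20 CPM the shares were 26.4% non-neural, 57.7% neural and 15.9% in unnamed clusters, with 15.4% highest in choroid plexus. Cdkn1c, a cell cycle inhibitor, was highest in meningeal fibroblasts labelled E16, at 1902 CPM, and Igf2r, the clearance receptor of Igf2, in the same cells at 137 CPM. Magel2 was highest in GABAergic cells labelled E16 at 25.5 CPM, Usp29 in those labelled E18 at 119 CPM, Sgce in meningeal fibroblasts at 67.9 CPM, and Blcap in Cajal-Retzius cells labelled E18 at 64.6 CPM. In radial glia, 19 were compared between the libraries labelled E16 and E14, with a median log2 ratio of -0.09, 0 at least 2-fold higher and 2 (Pon2 and Trappc9) at least 2-fold lower, beside -0.10, 2.36% and 7.46% over all genes. The 6 largest ratios were -1.57 for Pon2, -1.03 for Trappc9, -0.96 for Sgce, 0.77 for Mkrn3, -0.71 for Inpp5f and 0.65 for Ins2.

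The IGF pathway around Igf2 and Grb10 was followed through 16 receptors, substrates, binding proteins and RNA-binding proteins, of which 11 were compared in radial glia. Between the libraries labelled E16 and E14, 2 were at least 2-fold higher and 2 at least 2-fold lower, beside 2.36% and 7.46% of all genes. Igfbp7, a lower one, passed the minimum only through E14. Igf1r, the receptor that Igf2 signals through, stood in radial glia at 55.0 CPM in E14, 95.5 CPM in E16 and 95.6 CPM in E18. Igf2bp2, an RNA-binding protein of progenitors, stood at 31.7, 144 and 87.8 CPM and Igf2bp1 at 9.27 CPM and 24.6 CPM in E14 and E16. Irs2, a receptor substrate, was lower, at 22.4 CPM in E14 and 7.55 CPM in E16, and so was Igfbp7, at 13.7 and 0.702 CPM.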

How the data were processed

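UMI counts per gene and cell barcode from 3 libraries were used as the authors deposited them, unnormalized. They were made with Cell Ranger 6.0.1 on mRatBN7.2, per the submitters' processing notes; the annotation is not given in the sources used here. Protocol text in the labels also describes cultured human cells and multiplexing, which does not match primary rat cells. Barcodes with at least 1000 genes and at most 10% mitochondrial UMIs passed (4444, 5193 and 5690), and Scrublet's highest scores, 158, 216 and 259 cells, were removed as doublets. Cells were clustered jointly without integration (Scanpy 1.11.5, 2000 variable genes, 30 components, Leiden resolution 1). Clusters best matching non-neural or hem markers were clustered again, a choice made after seeing them. A name needed at least 3 raised markers and no better match among leading genes. Members and lists were chosen with earlier results of these data known. The text names all members, their 3 most alike genes (for Peg3 the first alone, the others not being reported here) and listed imprinted genes by a fixed rule. The ratio calculation was tested on simulated data. Alternatives were other cell filters, resolutions, doublet handling, scaling, added CPM, minimum CPM and averaging.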

Additional observations from a re-analysis of the deposited data

Results flagged for a closer look

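Mest had opposite directions in different classes between the libraries labelled E16 and E14, with a log2 ratio of 3.44 in GABAergic cells and -1.37 in radial glia. The GABAergic value rests on 25 UMIs against 1. Ndn likewise had a log2 ratio between the libraries labelled E18 and E14 of 1.46 in maturing excitatory neurons and -1.22 in GABAergic cells. With 1 library per label these differences between classes were not tested.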

How the results depend on the processing

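No paired analysis was possible because each label has 1 library. In radial glia the members' median log2 ratio between E16 and E14 was 0.70, and moved to 0.57 with a looser cell filter, 0.55 with a stricter one and 0.52 without doublet removal. Between E18 and E14 it moved from 0.44 to 0.22 with the stricter filter and 0.29 without doublet removal. The median of newborn neurons over radial glia moved from -1.35 to -0.93 with the stricter filter, -0.63 with 10 CPM added and -0.28 with a minimum of 20 CPM, which leaves fewer genes. Leaving out a library gave -1.35 to -0.86, the latter without E18. The Igf2 share outside neural classes was 66.8% counted over cells with a UMI instead of UMIs, and 75.9% (without E16) to 87.5% (without E18) when a library was left out. None of these changed sign. Of 46 single-member values in radial glia, intermediate progenitors and newborn neurons 14 were at least 2-fold, and 118 of their 129 alternative values stayed so, with 0 reversed. These did not include ratios inside single clusters, where 2 of the values that were at least 2-fold in their class had the opposite sign: between E16 and E14, Mest was 0.62 in radial glial cluster 6 and Meg3 -0.94 in progenitor cluster 11. The shares of Dlk1, and of Igf2 in erythroid and neural classes, were also taken without each library, an alternative chosen after seeing the data. Sums of few cells, as in mural, endothelial and GABAergic classes, set the widest intervals.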
